A study of Mus musculus with 6 samples.

Results

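The Polycomb repressive complexes were examined through 10 core genes, Ezh1, Ezh2, Eed, Suz12 and Jarid2 of Polycomb repressive complex 2 (PRC2), and Bmi1, Ring1, Rnf2, Cbx2 and Cbx7 of Polycomb repressive complex 1 (PRC1). Their members on the array were all probe sets, short sets of probes read as 1 value, that the platform annotation gave to 1 of these genes alone. This rule gave 29 of 45033 probe sets, 16 for PRC2 and 13 for PRC1, with all 10 of the 18192 genes named on the array represented. Expression was measured in C2C12, an established mouse myoblast line that can fuse into muscle fibres in culture. The 3 tested arrays held RNA from cells transfected with an shRNA (a short hairpin RNA for gene silencing) directed at PRDM2. The 3 control arrays held RNA from cells transfected with an shRNA against GFP, a jellyfish protein that these cells do not make. All 6 cultures had differentiated for 28 hours in medium with 2% horse serum, so both groups were differentiating, transfected cells, and the labels do not say whether a group is a clone or a pool. The comparison asks whether the transcripts of the Polycomb machinery differ in differentiating cells when PRDM2, a PR domain protein linked to methylation of histone H3 on lysine 9, is targeted.

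PRC2 places methyl groups on lysine 27 of histone H3. Ezh1 or Ezh2 is its catalytic subunit, Eed binds the finished mark, Suz12 holds the core together, and Jarid2 helps to bring it to chromatin. PRC1 attaches ubiquitin to histone H2A through Ring1 or Rnf2 with a partner such as Bmi1, and its Cbx subunits bind methylated lysine 27. In myoblasts Ezh2 is known to hold muscle genes silent, and its level is known to decline as cells leave the cycle and differentiate, while Ezh1 persists in muscle.

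Values below are log2 units of intensity plus 16 after quantile normalization, on which an intensity of 0 reads 4 and the median probe set 4.76. Differences are PRDM2 shRNA minus GFP shRNA, tested with limma across all 45033 probe sets and called at an adjusted p of 0.05. Array medians lay between 10.7 and 11.4 intensity units, and precision is limited by having 3 arrays a group. The labels call the samples biological replicates. All 12 skeletal muscle markers had a probe set at or above the median, against 4 of 6 fibroblast, 1 of 5 endothelial, 1 of 5 measured leukocyte and 3 of 6 neuronal markers. The summed intensity of the muscle list was 19700 to 20200 on the PRDM2 shRNA arrays and 16400 to 19900 on the GFP shRNA arrays, and that of the fibroblast list was 952 to 1730 on the PRDM2 shRNA arrays and 589 to 1500 on the GFP shRNA arrays. The summed intensity of the neuronal list was 82.1 to 98.6 on the PRDM2 shRNA arrays and 94.4 to 1520 on the GFP shRNA arrays, and the part of these markers in the values below was not tested. In that list Rbfox3, Snap25 and Syt1 lay under the median probe set, and Nefl read 4.13, 4.06 and 4.16 on PRDM2 shRNA arrays 1, 2 and 3, against 9.17, 4.18 and 8.50 on GFP shRNA arrays 1, 2 and 3. The array labelled GFP shRNA replicate 2 therefore lay with the PRDM2 shRNA arrays for this gene. In bulk RNA, fewer cells of a type and less RNA per cell cannot be told apart. Over the 11258 brightest probe sets, its log2 difference from PRDM2 shRNA replicate 2 had a median absolute deviation of 0.08, the smallest of the 15 array pairs. The same measure against GFP shRNA replicates 1 and 3 was 0.38 and 0.37. Results are therefore also given without that array.

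Prdm2 itself did not separate the groups. Its brightest probe set, 1453068_at, read 6.67, 6.32 and 6.02 on PRDM2 shRNA arrays 1, 2 and 3, against 6.19, 6.42 and 5.94 on GFP shRNA arrays 1, 2 and 3. This is a difference of 0.15 log2 units (SE 0.19, 95% interval -0.30 to 0.61), or 0.27 (SE 0.20) when GFP shRNA replicate 2 is left out. All 3 probe sets of Prdm2 had overlapping groups, so the group names and the direction of each difference rest on the labels. The position of the shRNA's target on the transcript was not analysed here.

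No Polycomb core gene was called higher or lower in PRDM2 shRNA cells. Of the 29 probe sets, 0 passed an adjusted p of 0.05, against a background of 0% of all probe sets tested, and each had an adjusted p of 1.00. At an unadjusted p under 0.05 (limma) the count was 0 of 29, against 2.94% of all probe sets. Log2 fold changes ran from -0.24 for a Jarid2 probe set to 0.24 for a Bmi1 probe set, with a median of 0.07 over the 29, beside 0.00 over all probe sets. Over the 18 probe sets whose mean was at or above the median probe set, 11 pointed higher and 7 lower, with a median of 0.01.

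For the 18 probe sets at or above the median probe set, the intervals from all 6 arrays bound how large a difference could have been missed. They take the label of GFP shRNA replicate 2 as given. All 29 of the 95% intervals held 0. Without that array, Ezh1 1449023_a_at stood at 0.48 (SE 0.18, unadjusted p = 0.038 with limma). For those 18, every interval lay between -1 and 1, the marks of a 2-fold decrease and a 2-fold increase on this scale. The 11 dimmer ones also did, but the offset compresses differences at their intensities of 0.359 to 15.8, so those intervals set no bound. Among the 18, Ezh1 1418290_a_at, Suz12 1449661_at, Jarid2 1450710_at and Cbx7 1433557_at read only 9.39 to 22.5 intensity units. Their differences are compressed as well, and their intervals bound little. The outermost bounds were -0.67, for Suz12 1452364_at, and 0.82, for Ezh1 1449023_a_at. With an offset of 1 in place of 16, which compresses dim values less, 16 of the 18 brighter probe sets kept intervals between -1 and 1. The exceptions were those same probe sets of Ezh1 and Suz12, and the highest bound was then 1.07. For 14 of the 18 the difference between groups was smaller than the pooled SD of the replicates.

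**Figure D1:**
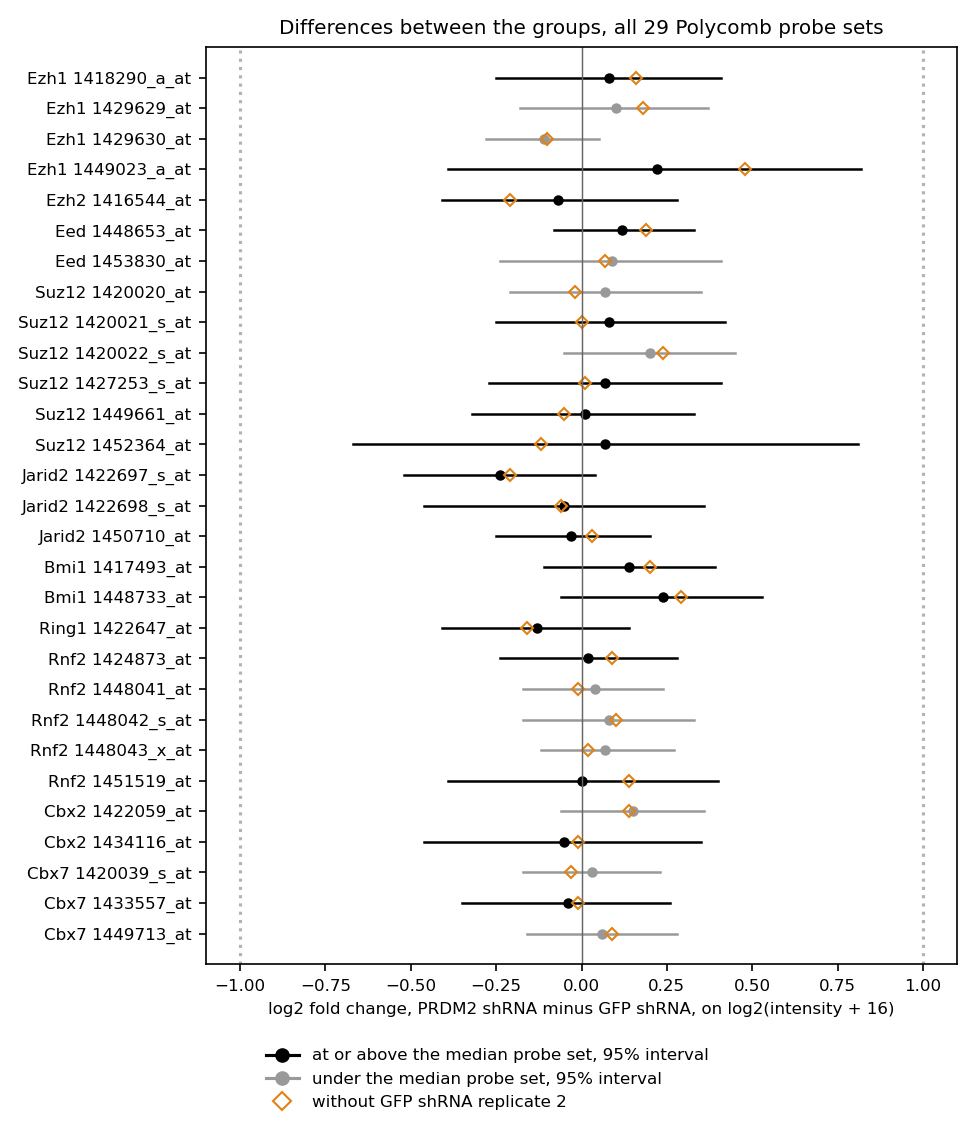
Log2 fold change of each of the 29 Polycomb probe sets (horizontal axis, log2 of intensity + 16, PRDM2 shRNA minus GFP shRNA) with its 95% interval from limma, black at or above the median probe set and grey below it. Open diamonds give the value without GFP shRNA replicate 2, dotted lines mark -1 and 1, and every interval crosses 0.

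The promoter sequences of Ezh1, Suz12 and Rnf2 are shown because more than 1 bright probe set of each put both arrays numbered 2 at the same end of the 6 arrays. This was as frequent in the table as a whole. Both arrays were highest for 22.2% and lowest for 22.2% of the bright member probe sets, beside 22.2% and 22.3% of all bright probe sets. Each sequence is the 250 bases before the RefSeq transcript start in assembly GRCm38.p6, read 5′ to 3′ on the strand of the gene. They lie at chr11:101226464-101226713 on the minus strand for Ezh1, chr11:79992856-79993105 on the plus strand for Suz12 and chr1:151500992-151501241 on the minus strand for Rnf2. Capitals mark a match to an E2F motif.
Ezh1: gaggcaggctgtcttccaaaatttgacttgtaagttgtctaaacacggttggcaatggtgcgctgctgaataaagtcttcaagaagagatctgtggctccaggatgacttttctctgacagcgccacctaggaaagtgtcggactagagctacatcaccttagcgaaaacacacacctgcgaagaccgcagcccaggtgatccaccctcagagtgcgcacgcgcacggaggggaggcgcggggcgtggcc
Suz12: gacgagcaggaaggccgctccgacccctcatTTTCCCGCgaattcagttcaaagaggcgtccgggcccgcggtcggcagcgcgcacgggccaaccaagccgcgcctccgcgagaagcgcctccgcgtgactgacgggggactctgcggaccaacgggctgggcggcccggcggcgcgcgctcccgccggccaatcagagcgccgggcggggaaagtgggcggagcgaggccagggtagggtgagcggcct
Rnf2: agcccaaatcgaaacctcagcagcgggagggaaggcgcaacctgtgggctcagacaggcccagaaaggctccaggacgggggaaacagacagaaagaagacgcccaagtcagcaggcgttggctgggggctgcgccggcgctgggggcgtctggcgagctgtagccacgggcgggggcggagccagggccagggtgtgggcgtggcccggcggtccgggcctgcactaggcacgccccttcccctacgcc

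The windows of 9 of the 10 genes were in the table, 10 windows in all, as Jarid2 has a pair of starts. They were searched on both strands for the E2F motif written as TTTGGCGC or TTTCCCGC or TTTCGCGC or TTTGCCGC. Only the Suz12 window among the 10 held a match, TTTCCCGC, which begins 219 bases before the start. Of all 32851 windows of that length 1.86% held one. The Ezh2 window begins inside the annotated span of that gene, so its search may not cover the bases before the gene. CAGCTG, the E box that muscle bHLH factors favour, was in 3 of the 10 windows, those of Ring1, Cbx7 and 1 start of Jarid2, and in 13.0% of all windows. The members' windows were rich in G and C, at 54.4% to 73.6% beside a median of 52.4%, and held 12 to 37 CpG beside a median of 6. A match describes letters and is not a binding site.

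Among the catalytic subunits, Ezh2 stood slightly lower and Ezh1 slightly higher in PRDM2 shRNA cells, neither beyond the spread between arrays. Ezh2, the methyltransferase of dividing cells, read 7.62, 7.32 and 7.48 on PRDM2 shRNA arrays 1, 2 and 3, against 7.72, 7.26 and 7.64 on GFP shRNA arrays 1, 2 and 3. The groups overlapped, with both arrays numbered 2 at the low end. The means were 7.47 ± 0.15 in PRDM2 shRNA cells and 7.54 ± 0.25 in GFP shRNA cells (SD, n = 3 each), a log2 fold change of -0.07 (SE 0.14, 95% interval -0.41 to 0.28). Without GFP shRNA replicate 2 the difference was -0.21 (SE 0.11, adjusted p = 0.64 with limma).

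Ezh1, the related methyltransferase that persists in resting and differentiated cells, had 4 probe sets, of which 2 were at or above the median. The brightest, 1449023_a_at, read 6.10, 6.73 and 6.41 on PRDM2 shRNA arrays 1, 2 and 3, against 5.90, 6.72 and 5.97 on GFP shRNA arrays 1, 2 and 3. Both arrays numbered 2 were the highest, and within each number the PRDM2 shRNA array was the higher, by 0.20, 0.01 and 0.44. The difference was 0.22 (SE 0.25, 95% interval -0.39 to 0.82). With GFP shRNA replicate 2 left out it was 0.48 (SE 0.18), with an unadjusted p of 0.038 and an adjusted p of 0.44 (limma), a fit that keeps the high PRDM2 shRNA array 2. Leaving out both arrays numbered 2 gave 0.32 (adjusted p = 0.53 with limma, or 0.27 with the replicate block). The value was 0.06 without PRDM2 shRNA replicate 2, 0.07 without GFP shRNA replicate 1, 0.11 without GFP shRNA replicate 3 and 0.37 without PRDM2 shRNA replicate 1. The second bright probe set, 1418290_a_at, stood at 0.08 (SE 0.14), and it exceeded 16 intensity units on 1 array. Of the dim probe sets, 1429630_at was lower on every PRDM2 shRNA array than on any GFP shRNA array, at -0.11 (SE 0.07), which is opposite to the other 3.

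The structural subunits of PRC2 gave no call either. Eed 1448653_at read 7.71, 7.66 and 7.60 on PRDM2 shRNA arrays 1, 2 and 3, against 7.42, 7.67 and 7.51 on GFP shRNA arrays 1, 2 and 3. GFP shRNA array 1 was the lowest and the groups overlapped, for a difference of 0.12 (SE 0.09, 95% interval -0.08 to 0.33). It was 0.07 without GFP shRNA replicate 1 and 0.19 (SE 0.09, adjusted p = 0.54 with limma) without GFP shRNA replicate 2. The other Eed probe set lay near the floor of the scale, between 4.03 and 4.48.

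Suz12 was the member with the most probe sets, 6, of which 4 were at or above the median, and all 6 pointed slightly higher, from 0.01 to 0.20. Its brightest, 1420021_s_at, read 7.60, 7.15 and 7.28 on PRDM2 shRNA arrays 1, 2 and 3, against 7.28, 7.09 and 7.40 on GFP shRNA arrays 1, 2 and 3, a difference of 0.08 (SE 0.14). PRDM2 shRNA array 1 was the highest, and the groups overlapped. The difference was 0.00 (SE 0.15) without GFP shRNA replicate 2. The probe sets 1420021_s_at, 1427253_s_at and 1452364_at followed each other over the 6 arrays, with Pearson correlations of 0.91 to 0.95. The last of them varied most of all members, over 1.18 log2 units, from 5.74 on PRDM2 shRNA array 2 to 6.92 on PRDM2 shRNA array 1. Its difference was 0.07 (SE 0.31), and -0.12 without GFP shRNA replicate 2. The remaining bright probe sets, 1427253_s_at and 1449661_at, stood at 0.07 (SE 0.14) and 0.01 (SE 0.14). The dim 1420022_s_at was higher on every PRDM2 shRNA array than on any GFP shRNA array, at 0.20 (SE 0.10), but it never exceeded 15.8 intensity units.

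Jarid2, the cofactor that guides PRC2, was the member with the lowest fold change. Its probe set 1422697_s_at read 5.70, 6.02 and 5.73 on PRDM2 shRNA arrays 1, 2 and 3, against 6.15, 6.11 and 5.91 on GFP shRNA arrays 1, 2 and 3. Each PRDM2 shRNA array was below the GFP shRNA array of the same number, by 0.45, 0.09 and 0.18, but PRDM2 shRNA array 2 stood above GFP shRNA array 3. The difference was -0.24 (SE 0.12, 95% interval -0.52 to 0.04), and -0.21 (SE 0.13) without GFP shRNA replicate 2. The brightest Jarid2 probe set, 1422698_s_at, stood at -0.05 (SE 0.17) and 1450710_at at -0.03 (SE 0.09), so the probe sets differed in size. Probe sets with the ending _s_at can share probes with other transcripts, which bears on Jarid2 and Suz12.

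Among PRC1 genes, Bmi1 had the largest difference. Bmi1, the partner that activates the ubiquitin ligase, had 2 bright probe sets that followed each other with a Pearson correlation of 0.97 over the 6 arrays. The dimmer, 1448733_at, read 7.32, 7.10 and 7.35 on PRDM2 shRNA arrays 1, 2 and 3, against 6.79, 7.13 and 7.15 on GFP shRNA arrays 1, 2 and 3. GFP shRNA array 1 was the lowest, while PRDM2 shRNA array 2 lay below GFP shRNA arrays 2 and 3. The difference was 0.24 (SE 0.12, 95% interval -0.06 to 0.53), and 0.29 (SE 0.14, adjusted p = 0.58 with limma) without GFP shRNA replicate 2. Without GFP shRNA replicate 1 it was 0.12. The brighter, 1417493_at, averaged 8.05 ± 0.10 in PRDM2 shRNA cells and 7.91 ± 0.16 in GFP shRNA cells (SD, n = 3 each), a difference of 0.14 (SE 0.11), or 0.05 without GFP shRNA replicate 1.

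The catalytic subunits of PRC1 were close to equal in the groups. Rnf2, the main ubiquitin ligase of the complex, read 7.80, 7.95 and 7.78 with its brightest probe set 1424873_at on PRDM2 shRNA arrays 1, 2 and 3, against 7.63, 7.98 and 7.87 on GFP shRNA arrays 1, 2 and 3. The difference was 0.02 (SE 0.11, 95% interval -0.24 to 0.28), and the second bright probe set, 1451519_at, gave 0.00 (SE 0.17). Both probe sets had the arrays numbered 2 at the top, and without GFP shRNA replicate 2 they stood at 0.09 (SE 0.11) and 0.14 (SE 0.15). Ring1, its paralogue, had 1 probe set, which read 5.85, 6.10 and 5.70 on PRDM2 shRNA arrays 1, 2 and 3, against 6.10, 5.96 and 5.98 on GFP shRNA arrays 1, 2 and 3. PRDM2 shRNA array 2 reached the top of the GFP shRNA range and arrays 1 and 3 lay below it, for a difference of -0.13 (SE 0.12, 95% interval -0.41 to 0.14). It was -0.16 (SE 0.13) without GFP shRNA replicate 2, -0.24 without PRDM2 shRNA replicate 2 and -0.04 without PRDM2 shRNA replicate 3.

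The chromodomain subunits, which read the PRC2 mark, did not differ detectably. Cbx2 1434116_at read 6.58, 6.80 and 6.24 on PRDM2 shRNA arrays 1, 2 and 3, against 6.74, 6.69 and 6.36 on GFP shRNA arrays 1, 2 and 3, a difference of -0.05 (SE 0.17, 95% interval -0.46 to 0.35). Array 3 was the lowest of each group. The dim Cbx2 probe set 1422059_at was higher on every PRDM2 shRNA array than on any GFP shRNA array, at 0.15 (SE 0.09), with no array above 16 intensity units. Cbx7 1433557_at was faint, at 4.88, 5.26 and 5.24 on PRDM2 shRNA arrays 1, 2 and 3, against 5.02, 5.24 and 5.26 on GFP shRNA arrays 1, 2 and 3. Array 1 was the lowest of each group, for a difference of -0.04 (SE 0.13, 95% interval -0.35 to 0.26). Both Cbx2 1434116_at and Cbx7 1433557_at stood at -0.01 without GFP shRNA replicate 2.

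**Figure D2:**
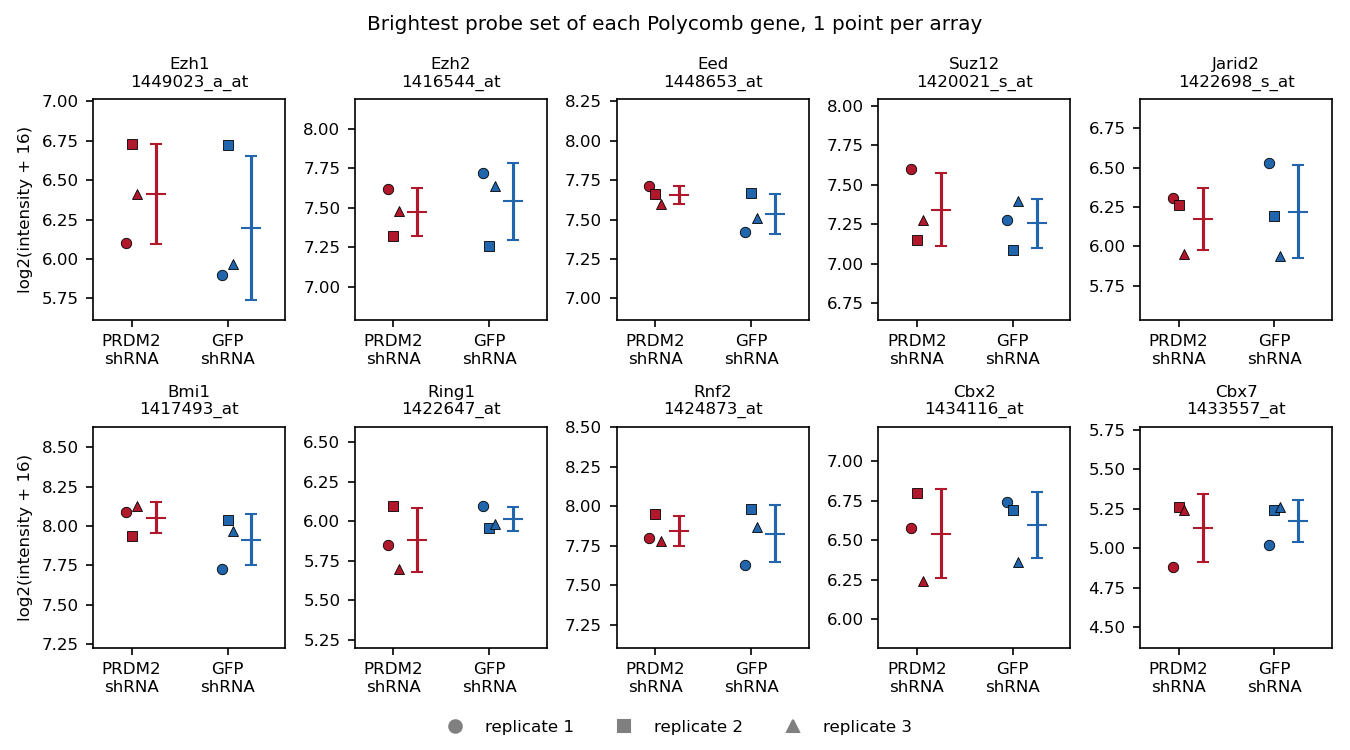
Brightest probe set of each of the 10 genes (vertical axis, log2 of intensity + 16, each panel spanning 1.4 units), with 1 point per array (PRDM2 shRNA in red, GFP shRNA in blue) and the mean ± SD beside the points (n = 3 per group). The groups overlap in all 10 panels, and the squares of both groups, replicate 2, lie close together.

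In 3 of the 29 probe sets, or 10.3%, the groups did not overlap, against 7.24% of all probe sets. They were the dim probe sets of Ezh1, Suz12 and Cbx2 described above, all under the median probe set. In total 11 member probe sets lay under it, at intensities of 0.359 to 15.8, where the offset sets the size of a difference. Their log2 fold changes ran from -0.11 to 0.20. Besides those already given, they were 0.10 for Ezh1 1429629_at, 0.07 for Suz12 1420020_at, 0.09 for the second Eed probe set, 0.04, 0.08 and 0.07 for 3 of Rnf2, and 0.03 and 0.06 for 2 of Cbx7.

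Leaving out GFP shRNA replicate 2 called 0.551% of all probe sets (limma, adjusted p of 0.05) and 0 of the 29 members. The median log2 fold change of the members was then 0.02. In the same fit 3 muscle marker probe sets of 19 were called higher and 1 lower, 2 fibroblast marker probe sets of 10 were called higher and 1 lower, and 3 neuronal marker probe sets of 16 were called lower. With all 6 arrays 0 of these were called, and the part of these markers in the members' values was not tested. With the replicate number as a block, 0 members passed the adjusted threshold, and 2 of 29, or 6.9%, had an unadjusted p under 0.05, against 7.84% of all probe sets. These were Jarid2 1422697_s_at (unadjusted p = 0.037) and the dim Suz12 1420022_s_at (unadjusted p = 0.033), both from the limma model. Without both arrays numbered 2 and with the block, 1.52% of all probe sets were called and again 0 members, the nearest being Bmi1 1448733_at at 0.37 (adjusted p = 0.24 with limma).

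The members varied over the arrays as other probe sets of their brightness did. The 18 brighter probe sets spanned 0.26 to 1.18 log2 units over the 6 arrays with a median of 0.46, which is also the median span of the 22517 probe sets at that brightness. Within replicate number 1 the members' mean absolute difference between PRDM2 shRNA and GFP shRNA was 0.24, beside 0.27 for all probe sets at that brightness. It was 0.08 beside 0.08 for number 2, and 0.12 beside 0.19 for number 3. The PRDM2 shRNA array was the higher for 10, 9 and 7 of the 18 probe sets in numbers 1, 2 and 3.

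Ezh1, Ezh2, Suz12 and Rnf2 varied with the replicate number in the brighter probe sets. On both arrays numbered 2, 2 probe sets of Ezh1 and 2 of Rnf2 read higher than on every other array, and those of Ezh2 and 3 of Suz12 read lower. These 4 highest and 4 lowest probe sets are 22.2% and 22.2% of the 18. Over all 22517 probe sets at that brightness, the shares were 22.2% and 22.3%, so the members followed the table as a whole. A list of 18 measured E2F and cell cycle genes was on average lowest on the arrays numbered 2. That is the direction of Ezh2 and the 3 Suz12 probe sets, and opposite to that of Ezh1 and Rnf2. The mean of the list was 7.15, 6.82 and 7.10 on PRDM2 shRNA arrays 1, 2 and 3, against 7.37, 6.83 and 7.20 on GFP shRNA arrays 1, 2 and 3. Of its 46 probe sets, 65.2% were lowest on both arrays numbered 2. Of Ezh1, Ezh2, Suz12 and Rnf2, only Suz12 had an E2F match in the window searched, and the part of that match was not tested. The part of cell cycle state in the Ezh2 and Suz12 values was not tested.

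**Figure D3:**
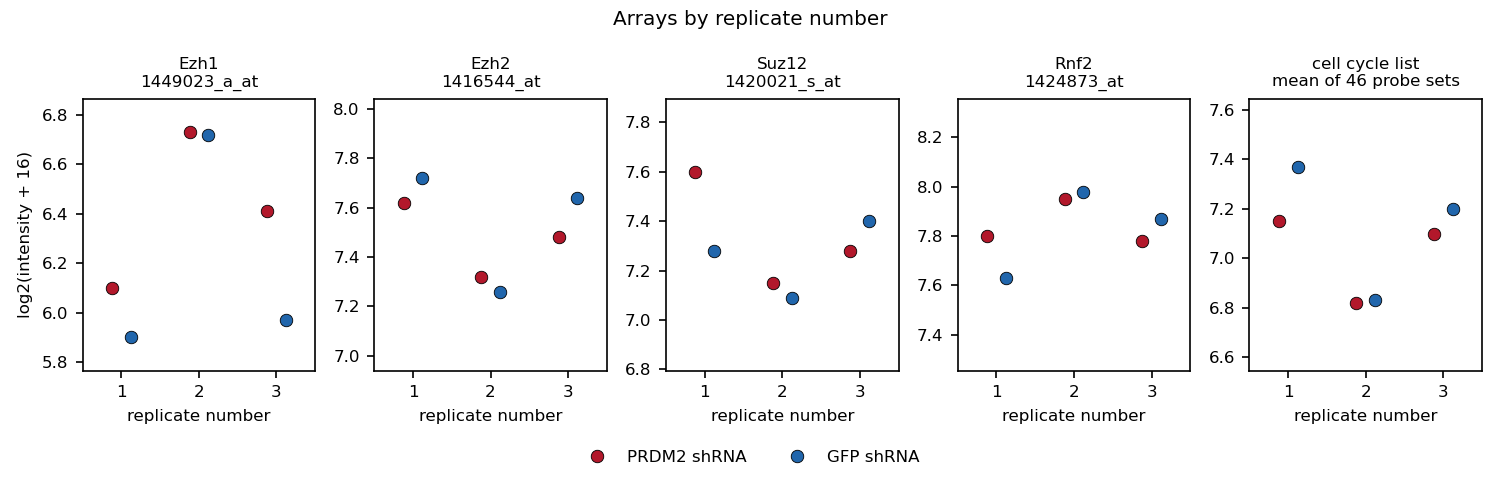
Level on each array by replicate number (PRDM2 shRNA in red, GFP shRNA in blue, vertical axis log2 of intensity + 16, each panel spanning 1.1 units) for 1 probe set each of Ezh1, Ezh2, Suz12 and Rnf2 and for the mean of 46 probe sets of cell cycle genes. Replicate 2 is high for Ezh1 and Rnf2 and low for Ezh2, Suz12 and the cell cycle mean in both groups.

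The genes whose brightest probe set followed Ezh2 most closely over the 6 arrays were Eif4a1 (Pearson r = 0.997), Angpt2 (0.995), Inhbc (0.994), Yeats2 (0.992) and Ruvbl1 (0.991), out of 4910 genes of sufficient level and range. Ruvbl1, an ATPase of chromatin remodelling complexes, read 7.54, 7.17 and 7.43 on PRDM2 shRNA arrays 1, 2 and 3, against 7.75, 7.11 and 7.66 on GFP shRNA arrays 1, 2 and 3. All 5 were lowest on both arrays numbered 2, and the correlations are a ranking over 6 arrays.

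The other genes of the Polycomb system were likewise without a call. Of 9 other PRC2 subunits, all measured with 31 probe sets, 0 were called, and the median log2 fold change was -0.03 beside 0.00 over all probe sets. Phf1, a Polycomb-like accessory subunit, read 5.12, 5.54 and 5.15 on PRDM2 shRNA arrays 1, 2 and 3, against 5.73, 5.55 and 5.50 on GFP shRNA arrays 1, 2 and 3. The groups overlapped only in that PRDM2 shRNA array 2 exceeded GFP shRNA array 3, and the difference was -0.32 (SE 0.13), with an unadjusted p of 0.049 (limma). Aebp2, a zinc finger cofactor of PRC2, stood at -0.13 (SE 0.09).

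Of 23 other PRC1 subunits, 21 were measured with 50 probe sets, 22 pointing higher and 28 lower with a median of -0.01, and 0 were called. E2f6, a repressive E2F of a variant PRC1, read 6.41, 6.21 and 6.57 on PRDM2 shRNA arrays 1, 2 and 3, against 5.85, 6.23 and 6.02 on GFP shRNA arrays 1, 2 and 3. PRDM2 shRNA array 2 was just under GFP shRNA array 2 and the others were separate, for a difference of 0.37 (SE 0.13, unadjusted p = 0.030 with limma). Kdm2b, which brings a variant PRC1 to CpG-rich DNA, stood at -0.28 (SE 0.12, unadjusted p = 0.046 with limma). Their adjusted p-values (limma) without GFP shRNA replicate 2 were 0.26 and 0.67. The other Kdm2b probe set, also bright, gave -0.15 (SE 0.09), and the other E2f6 probe set, near the floor, gave 0.09 (SE 0.11).

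Enzymes that undo Polycomb marks, with their partners, were 8 genes with 25 probe sets, of which 0 were called and the median was -0.02. Usp16, which removes ubiquitin from histone H2A, stood at 0.22 (SE 0.12) with a probe set under the median. Its brighter probe set gave 0.11 (SE 0.18). Uty, a Y-linked relative of the lysine 27 demethylases, stood at 0.10 (SE 0.08), also with a probe set under the median. Its other probe sets gave -0.04 (SE 0.22), -0.04 (SE 0.08) and 0.02 (SE 0.08). Genes reported as Polycomb targets in muscle cells, 6 genes with 9 probe sets, had a median of 0.03 and 0 calls. Pax7, a satellite cell factor, and Cdkn2b, a cell cycle inhibitor, lay near the floor at -0.15 (SE 0.10) and -0.10 (SE 0.08). The other Pax7 probe set, also near the floor, gave 0.04 (SE 0.08). The genes of this list with probe sets at or above the median were Myog and Ckm. Myog stood at 0.10 (SE 0.14), and the brighter Ckm probe set at 0.22 (SE 0.23). The other Ckm probe set gave -0.04 (SE 0.33). Without GFP shRNA replicate 2 these values were 0.23 (SE 0.12), 0.35 (SE 0.24) and -0.09 (SE 0.38).

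Hox genes, classical Polycomb targets, were measured for 33 of 39 genes with 48 probe sets, 26 pointing higher and 22 lower, with a median of 0.03 and 0 calls. Hoxa11 read 6.25, 6.42 and 6.20 on PRDM2 shRNA arrays 1, 2 and 3, against 5.45, 6.49 and 5.49 on GFP shRNA arrays 1, 2 and 3. GFP shRNA array 2 was the highest of the 6, and with it the difference was 0.48 (SE 0.27). When that array is left out, Hoxa11 was the only 1 of the 48 called, beside 0.551% of all probe sets, at 0.81 (SE 0.10, adjusted p = 0.036 with limma). Hoxa4 stood at -0.19 (SE 0.10) near the floor. Its other probe set, also under the median probe set, pointed higher, at 0.14 (SE 0.15).

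The E2F and cell cycle list, 46 probe sets, had 35 on the lower side in PRDM2 shRNA cells and a median of -0.11, with 0 called. Without GFP shRNA replicate 2 the median was -0.28, again with 0 called. Cdkn1a, an inhibitor of cyclin-dependent kinases, read 8.95, 8.98 and 8.91 on PRDM2 shRNA arrays 1, 2 and 3, against 8.37, 8.95 and 8.52 on GFP shRNA arrays 1, 2 and 3, a difference of 0.33 (SE 0.15). Ccnd1, cyclin D1, stood at -0.41 (SE 0.19). For both, GFP shRNA array 2 lay with the PRDM2 shRNA arrays.

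**Figure D4:**
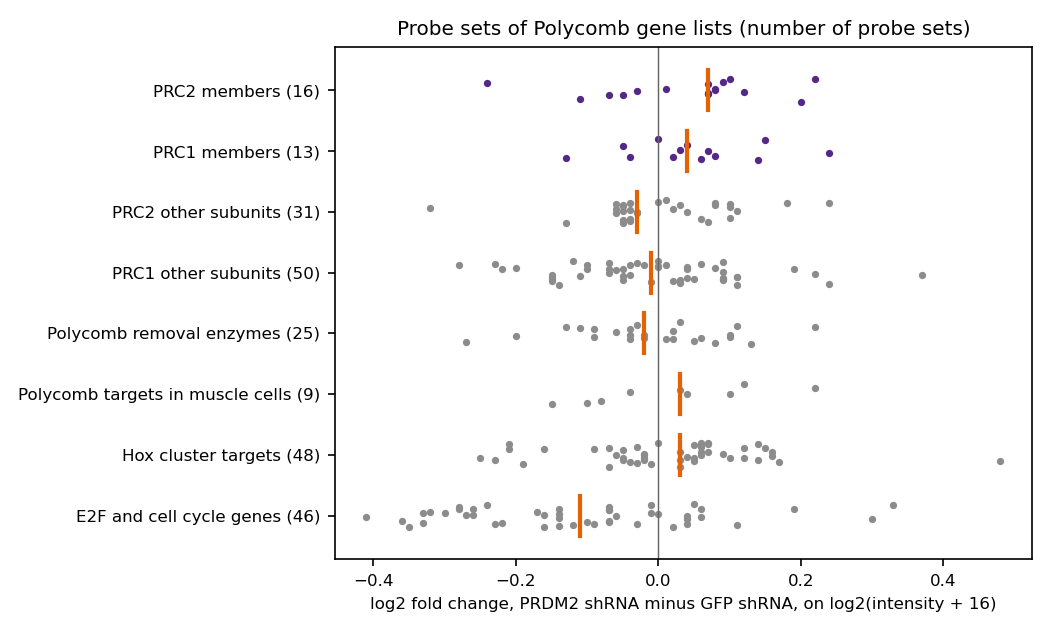
Log2 fold change (horizontal axis, log2 of intensity + 16, PRDM2 shRNA minus GFP shRNA, all 6 arrays) of each probe set in the core members (purple) and in related lists (grey), with the median as an orange bar. Medians lie between -0.11 for cell cycle genes and 0.07 for PRC2 members, and Hoxa11 is the outermost point at 0.48.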

How the data were processed

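Total RNA, 8 ug per sample, was extracted with Trizol and hybridised as biotinylated cRNA to 1 Affymetrix mouse array per sample, per the labels' protocols. The deposited table holds linear probe set intensities of 6 arrays. Per the submitters' processing notes GCOS and PLIER were used, without version or order, and what was done to scale the arrays is not stated in the labels or notes used here. From 45101 probe sets, 64 controls and 4 that held their gene's Entrez number in place of an intensity were left out, which left 45033. Genes were named from the platform annotation.

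Values were quantile-normalized as log2(intensity + 16), a scale on which changes of dim genes appear smaller than they are. Groups followed the titles. All probe sets were fitted together with limma 3.58.1 in R 4.3.3 (lmFit, eBayes, two-sided, Benjamini-Hochberg over all probe sets, no block), and tested on simulated data. The members and lists were chosen with earlier results of these data known. Named genes were all members, Prdm2, per list any called gene or else the 2 of smallest p, and the 5 genes most correlated with Ezh2. Myog and Ckm were added as the bright genes of their list. For the list genes chosen by p, the value given first is that of the gene's probe set with the smallest p. Deviations from group means correlated at 0.32, 0.60 and 0.62 between same-numbered arrays, each above the 0.1 set for pairing, so the block was read as paired. Since deviations cancel out within a group, the closeness of the arrays numbered 2 can raise all of these correlations. They do not show that each number is a separate pair. The pairing comes from the data, since the labels only number the replicates. Promoter windows came from RefSeq, GRCm38.p6. The alternatives were other scaling, offsets, dim filters, probe set summaries, variance models, array weights, the block and left-out arrays.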

Additional observations from a re-analysis of the deposited data

How the results depend on the processing

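The member count stayed at 0 called under every alternative run, the replicate block (0) included. Over all probe sets the count was 0 with all 6 arrays in every setting, 248 without GFP shRNA replicate 2, 59 without both arrays numbered 2 and 686 when the replicate block was added to that. Leaving out 1 array gave 0 to 248 over all probe sets and 0 to 1 in the related lists, and leaving out both arrays numbered 2 with the replicate block gave 1 in those lists (Hoxa11). For 21 of the 29 member probe sets and 3 of Prdm2, fold changes were recomputed under the alternatives. The dim filter left some of these probe sets out, and the probe set summaries gave 1 value per gene. The fold changes kept their direction in 365 and turned in 38 values, which ran from -0.20 to 0.11 and were all uncalled. For the other 8, all dim, fold changes were compared only with the block and without arrays numbered 2. Of these, Suz12 1420020_at gave -0.02, Cbx7 1420039_s_at -0.03 and Rnf2 1448041_at -0.01 without GFP shRNA replicate 2, and Eed 1453830_at gave -0.08 without both arrays numbered 2.

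With the deposited scaling and with median centring, Rnf2 1424873_at gave 0.00 and 1451519_at -0.02, and with an offset of 64 the second gave 0.00. The mean of all probe sets per gene gave 0.05 for Cbx2 and 0.01 for Cbx7. Array weights gave 0.00 for Suz12 1452364_at and 0.02 for Jarid2 1450710_at. Without both arrays numbered 2, with and without the replicate block, Suz12 1449661_at gave 0.00 and Jarid2 1450710_at 0.01. The cause of these turns was not tested.

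Leaving out 1 array in turn, log2 fold changes ranged from -0.04 to 0.19 for Ezh1 1418290_a_at, 0.06 to 0.48 for 1449023_a_at, and from -0.21 to 0.02 for Ezh2. They ranged from -0.05 to 0.18 for Suz12 1420021_s_at, -0.05 to 0.20 for 1427253_s_at, -0.07 to 0.15 for 1449661_at and -0.20 to 0.39 for 1452364_at. For Jarid2 they were -0.34 to -0.18 (1422697_s_at), -0.19 to 0.11 (1422698_s_at) and -0.10 to 0.03 (1450710_at). For Rnf2 they were -0.08 to 0.09 (1424873_at) and -0.16 to 0.14 (1451519_at). For Bmi1 they were 0.12 to 0.31 (1448733_at) and 0.05 to 0.20 (1417493_at), for Ring1 -0.24 to -0.04 and for Eed 1448653_at 0.07 to 0.19. For Cbx2 1434116_at they were -0.19 to 0.09 and for Cbx7 1433557_at -0.12 to 0.08. For Prdm2 they were -0.06 to 0.23 (1429251_at), 0.06 to 0.18 (1444123_at) and -0.01 to 0.31 (1453068_at). Signal near the floor limits 11 of the 29 probe sets.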
